A study of Mus musculus with 10 samples.

Results

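Complement system transcripts were compared between the injured and the opposite side of mouse brain, 7 days after a controlled cortical impact, a mechanical blow to the cortex on one side that serves as a model of traumatic brain injury. The genes were chosen by name, as 35 components, receptors and regulators of the cascade, with earlier results of these data known. Each was read from the row of the array that named it alone, or from the brighter row where a gene had several. Of the 35 genes, 32 were measured, among 30142 genes tested. C3, the substrate on which all routes of activation converge, and Cfd, the protease of the alternative pathway known as adipsin, had no row named in the array annotation used here. C1s1, a protease of the C1 complex, shared its row with the older symbol C1s and was left out because only rows naming a gene alone were used. These 3 genes were not analysed here.

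Tissue came from adult mice of both sexes, 8 to 12 weeks old, bought from a commercial breeder, which had received an impact given as 2 mm on one side. The ipsilateral group (5 samples) was tissue at the impact site, and the contralateral group (5 samples) was the corresponding region of the other hemisphere of impacted mice. No strain was given, and no sham-operated or unimpacted mice were among the samples, so every contralateral value also came from an injured brain. The labels call the samples biological replicates without saying which came from the same mouse.

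Complement is a chain of proteases and binding proteins that marks debris and cells for removal. The classical route begins when C1q, a molecule built of A, B and C chains, recruits the proteases C1r and C1s, and C1s cuts C4 and C2. The lectin route begins with collectins and the MASP proteases, the alternative route amplifies through factors B and D and properdin, and the late components C5 to C9 assemble a pore in membranes. In brain, C1q is made largely by microglia, C4 and clusterin largely by astrocytes, and most late components in the body come from the liver.

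Values are log2 signals as deposited, so a difference of 1 is a 2-fold change, and a signal of a gene is not compared with that of another gene because probe sets differ in brightness. The array medians over all rows lay between 4.79 and 4.84 ipsilaterally and between 4.71 and 4.77 contralaterally, an offset that cannot be told apart from the side. Signals below them were not shown to be above background. Of the 32 genes, 16 had means above every array median on both sides, 14 had both means below them, and 2 (C2 and Cfb) lay across them. With 5 arrays a side, precision was limited. Neuronal markers defined the tissue on both sides, with Snap25 at 18.18 ± 0.25 (mean ± SD, n = 5) ipsilaterally and 18.32 ± 0.17 contralaterally, while the 4 liver and serum markers (Alb, Apoa2, Ahsg and Fga) had side means below every array median.

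The promoters of 4 genes are shown because the results turn on these genes: C1qb and C1qc, which shared their highest and lowest arrays, and the anaphylatoxin receptor genes C3ar1 and C5ar2. The sequences are from RefSeq on GRCm38.p6 and run 5′ to 3′ on the minus strand from 250 bases before to 50 bases after an annotated start, at chr4:136886151-136886450 for C1qb, chr4:136892865-136893164 for C1qc, chr6:122856108-122856407 for C3ar1 and chr7:16244105-16244404 for the more upstream of the listed starts of C5ar2. Capitals mark matches to the motifs named after them.
C1qb: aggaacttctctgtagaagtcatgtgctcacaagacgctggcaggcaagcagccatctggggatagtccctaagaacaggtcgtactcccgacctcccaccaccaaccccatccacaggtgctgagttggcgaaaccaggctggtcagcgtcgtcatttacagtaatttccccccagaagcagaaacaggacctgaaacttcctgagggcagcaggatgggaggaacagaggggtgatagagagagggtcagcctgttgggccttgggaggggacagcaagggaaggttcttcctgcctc
C1qc: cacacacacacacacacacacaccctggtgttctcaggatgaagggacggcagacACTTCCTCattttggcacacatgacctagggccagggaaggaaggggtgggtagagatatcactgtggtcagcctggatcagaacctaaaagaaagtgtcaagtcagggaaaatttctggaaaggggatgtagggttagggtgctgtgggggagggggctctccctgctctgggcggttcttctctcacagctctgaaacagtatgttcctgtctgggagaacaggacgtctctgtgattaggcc
C3ar1: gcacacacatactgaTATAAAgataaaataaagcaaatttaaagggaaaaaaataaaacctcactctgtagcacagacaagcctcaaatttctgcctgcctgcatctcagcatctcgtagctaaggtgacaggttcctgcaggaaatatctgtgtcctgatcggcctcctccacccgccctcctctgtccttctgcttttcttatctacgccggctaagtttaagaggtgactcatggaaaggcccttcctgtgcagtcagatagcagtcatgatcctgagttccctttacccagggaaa
C5ar2: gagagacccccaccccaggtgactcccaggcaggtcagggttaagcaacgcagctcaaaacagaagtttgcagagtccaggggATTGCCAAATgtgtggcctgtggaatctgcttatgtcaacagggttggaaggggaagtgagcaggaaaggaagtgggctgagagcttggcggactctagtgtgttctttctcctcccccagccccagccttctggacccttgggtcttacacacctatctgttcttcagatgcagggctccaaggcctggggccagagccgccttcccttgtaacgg

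RefSeq promoters were listed for 25 of the 35 genes, at 28 start sites, and 6 motifs were searched on both strands, N meaning any base. The letters GAGGAAGT, a form of the site bound by the myeloid factor PU.1, were found at 1 of the 28 sites, that of C1qc, where they begin at position -195 on the opposite strand, and at 3.2% of all 32851 promoters. A C/EBP form (TTGCGCAA, or ATTGC and AAT with any 2 bases between) was found for C5ar2 at position -167, for C1s1 and for C9, and at 0.764% of all promoters. TATAAA was found for C3ar1 at position -235, for C3, C7 and Hc, and at 13.6% of all promoters. The interferon-response forms TTCNNNGAA (GAS) and GAAA repeated after any 2 bases (ISRE) were found for 4 genes (C1ra, C7, C8a and Masp2) and for 2 genes (Cd46 and Cd59a), against 8.3% and 3.44% of all promoters, and the NF-kB form, GGGA and TTCC with any 2 bases between, for none, against 1.47%. No matches overlapped. A match describes letters in these windows, and the printed window of C1qb held none of the 6.

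The comparison set tissue at the impact against the matching region of the opposite side. C5ar2, a receptor for the C5a fragment, rose ipsilaterally and was the only 1 of the 32 genes to pass the test, a limma fit over all 30142 genes with a Benjamini-Hochberg adjusted p under 0.05. None passed downward. Of all genes tested, 1.22% passed upward and 4.33% downward, so the share of complement genes called was near the background and is not a result about the list. At an unadjusted p under 0.05 in the same fit, 16 of the 32 genes differed, against 21.3% of all genes. Of the 16, 15 were higher and 1 (C7) was lower, and over all genes 3020 of 6420 were higher. Mean signals were higher ipsilaterally for 28 of 32 genes, against 56.1% of all genes, and the median log2 difference of the 32 was 0.19, against 0.02 over all genes. Because the genes were chosen with earlier results of these data known, these shares are a description and not a test of the list. In bulk tissue, more cells of a type and more RNA per cell cannot be told apart.

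Over all genes, 369 passed upward and 1305 downward on the deposited values, and 225 and 2130 after subtracting the median of every array. With that centring 7 of the 28 positive differences turned negative (C1ra, Masp2, Mbl2, C6, C8g, Vsig4 and Cfi), each of them 0.05 or smaller on the deposited scale. The 6 genes whose mean signals differed by at least 2-fold were C4b, Serping1, C3ar1 and the C1q chain genes C1qa, C1qb and C1qc, against 0.610% of all genes that were higher by that much. None of these 6 passed the test.

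**Figure D1:**
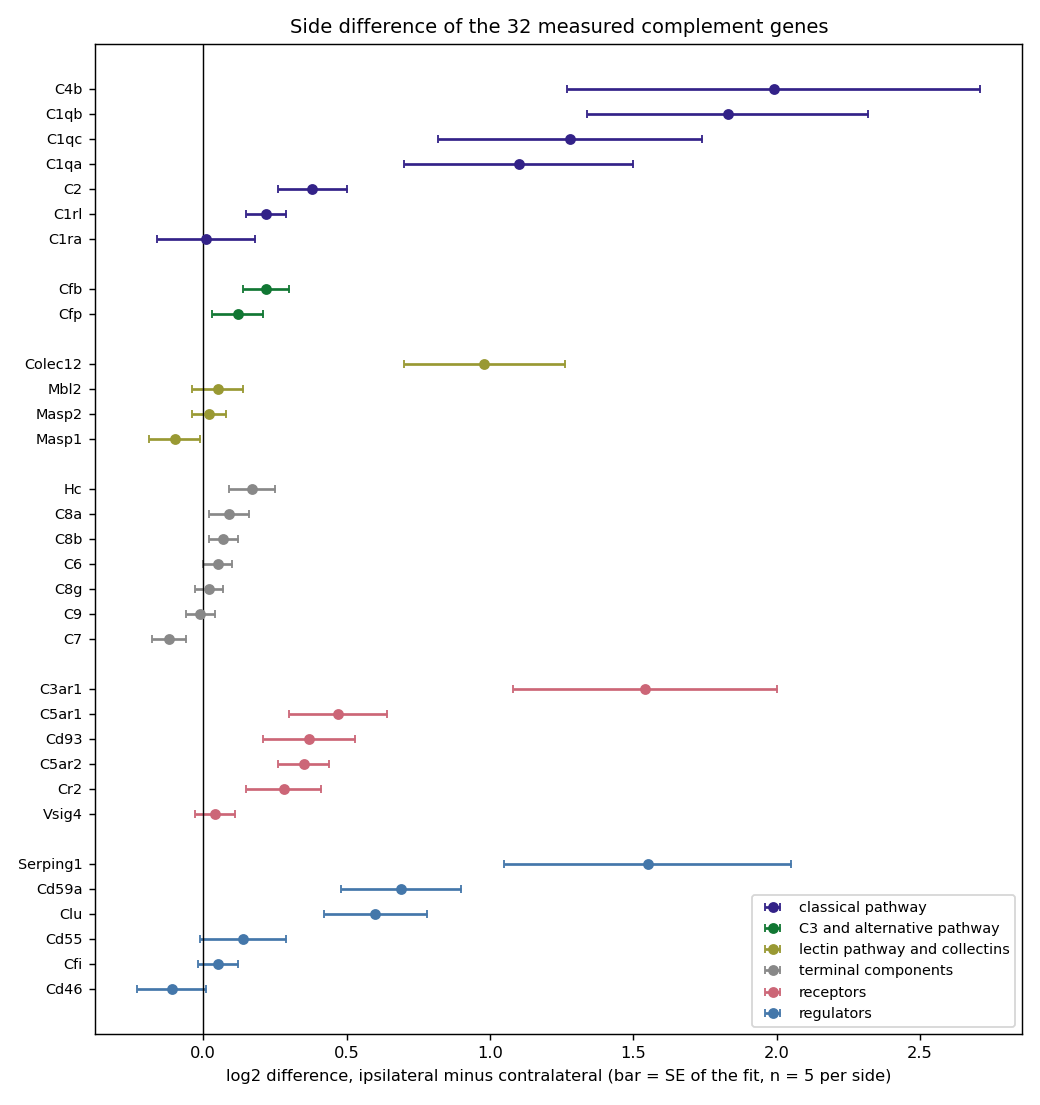
Log2 difference, ipsilateral minus contralateral, of the 32 measured complement genes (x axis) in 6 role groups (colours); bars are the SE of the fit, n = 5 per side. C4b and C1qb lie farthest right, at 1.99 and 1.83, C4b with the widest error bar (SE 0.72), while the 7 terminal components lie between -0.12 and 0.17.

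Among the classical pathway genes, all 7 measured had a higher ipsilateral mean, 6 at an unadjusted p under 0.05, and none passed after adjustment in limma. C1qb encodes the B chain of C1q, the recognition molecule. Its signal on ipsilateral replicates 1 to 5 was 11.58, 12.39, 12.52, 14.16 and 14.00, and on contralateral replicates 1 to 5 it was 10.60, 11.86, 11.22, 10.38 and 11.45. Ipsilateral replicates 4 and 5 stood far above the rest, and ipsilateral replicate 1 lay below the highest contralateral array, replicate 2. The log2 difference was 1.83 ± 0.49 (SE), a 3.55-fold higher signal, with an adjusted p of 0.058 in limma and 4 of 5 ipsilateral arrays above every contralateral one.

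C1qa and C1qc, the genes of the A and C chains, are neighbours of C1qb in the genome and were highest on the same arrays. C1qa stood at 9.43, 9.68, 9.49, 11.57 and 10.98 on ipsilateral replicates 1 to 5 and at 8.66, 9.49, 9.05, 8.98 and 9.45 contralaterally. For C1qc the ipsilateral values were 7.80, 8.69, 8.56, 10.53 and 10.05, and the contralateral ones 7.56, 8.31, 7.84, 7.39 and 8.14. In both genes the groups overlapped, with ipsilateral replicate 1 inside the contralateral range and replicates 4 and 5 the highest of all 10 arrays. The log2 differences were 1.10 ± 0.40 (adjusted p = 0.147) and 1.28 ± 0.46 (adjusted p = 0.143).

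C4b, whose product is cut by C1s and covers marked surfaces, had the largest difference of the 32 genes. Its ipsilateral values were 8.56, 9.97, 10.08, 11.60 and 12.34 on replicates 1 to 5, and its contralateral values 7.63, 9.74, 9.33, 7.14 and 8.77. Both sides were widely spread, with SDs of 1.48 and 1.11, and the lowest ipsilateral array lay below 3 contralateral ones. The difference of 1.99 ± 0.72 did not pass (adjusted p = 0.141). C4a, a near-identical neighbour outside the 35 genes and named here after its values were seen, differed by 1.16 ± 0.41 (adjusted p = 0.138), and signal between this pair of copies may be split uncertainly.

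C2, the protease partner of C4, was read at 4.76, 4.93, 5.04, 5.14 and 5.54 ipsilaterally and at 4.60, 4.77, 4.72, 4.72 and 4.70 contralaterally. Only ipsilateral replicate 1 lay within the contralateral range. The difference of 0.38 ± 0.12 did not pass (adjusted p = 0.105), its contralateral mean of 4.70 lay below every array median, and its other, dimmer row differed by -0.01. C1ra, a protease of the C1 complex with a near-identical copy (C1rb), differed by 0.01 ± 0.17, and the C1r-like gene C1rl, below every array median, by 0.22 ± 0.07 (adjusted p = 0.114).

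**Figure D2:**
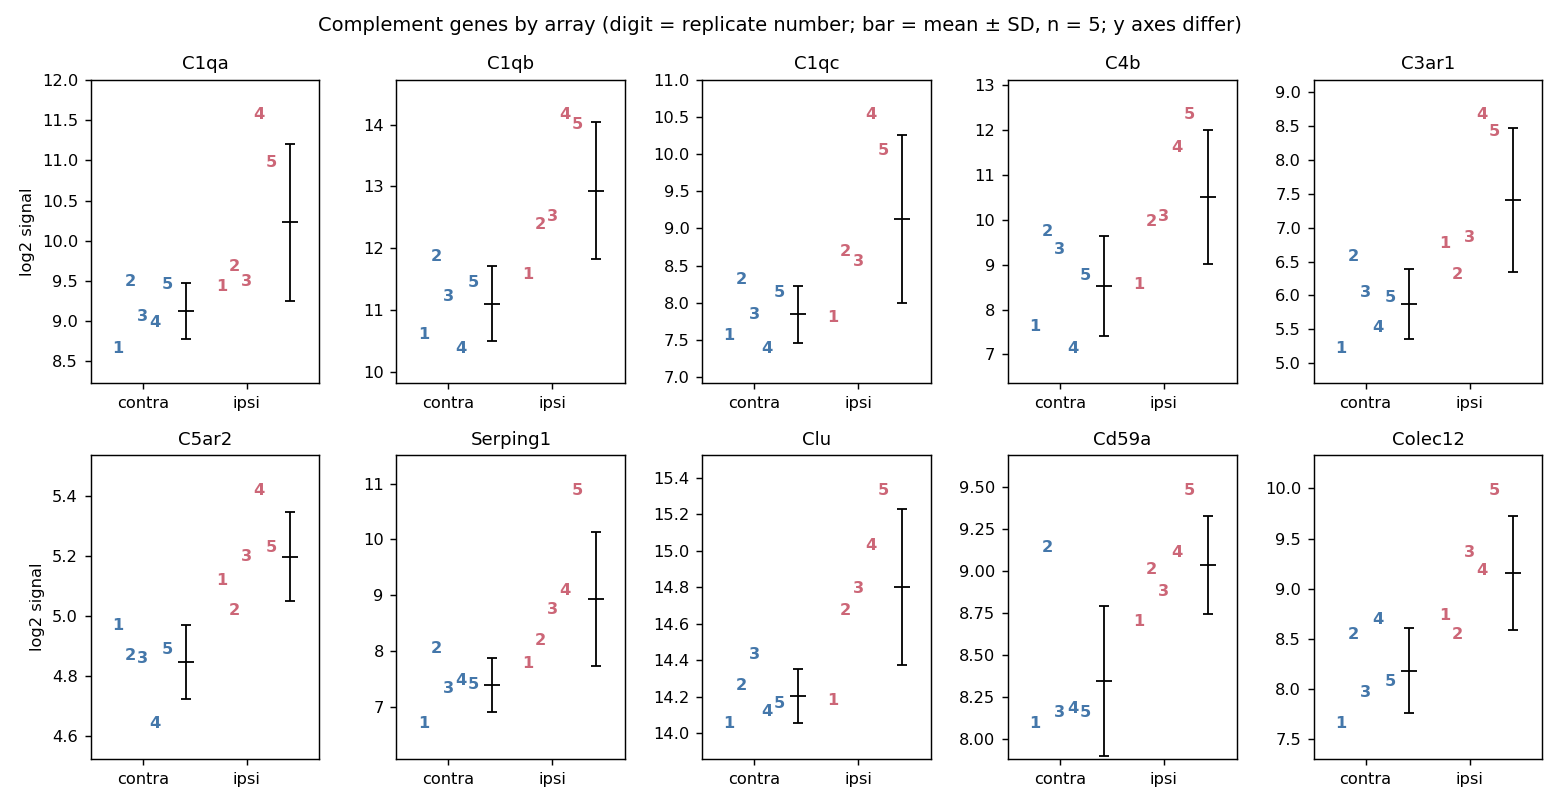
Log2 signal (y axis, a scale of its own in each panel) of 10 complement genes on contralateral (blue) and ipsilateral (red) arrays; each digit is the replicate number of an array and the bars are mean ± SD, n = 5. Ipsilateral replicates 4 and 5 are the 2 highest arrays for C1qa, C1qb, C1qc, C4b, C3ar1, C5ar2, Serping1 and Clu, and C5ar2 alone has no overlap between the sides.

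Of the alternative pathway, Cfb and Cfp were measured, and neither passed. Cfb encodes factor B, the protease of the alternative convertase, and stood at 4.80, 4.97, 4.73, 5.10 and 4.95 ipsilaterally and 4.60, 4.63, 4.73, 4.75 and 4.74 contralaterally. Its sides overlapped at ipsilateral replicate 3, and its difference was 0.22 ± 0.08 (adjusted p = 0.126), with means above the array medians ipsilaterally and below them contralaterally. Cfp, the gene of properdin, which stabilises that convertase, read 5.54, 5.57, 5.73, 5.52 and 5.95 ipsilaterally and 5.47, 5.63, 5.48, 5.50 and 5.61 contralaterally, with overlapping sides and a difference of 0.12 ± 0.09 (adjusted p = 0.460).

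In the lectin group, Colec12 stood apart from the 3 other genes. It encodes a membrane collectin that acts as a scavenger receptor, and it read 8.73, 8.54, 9.36, 9.18 and 9.98 ipsilaterally and 7.65, 8.54, 7.96, 8.69 and 8.07 contralaterally. Of the ipsilateral arrays, 4 of 5 were above every contralateral array, and replicate 2 equalled contralateral replicate 2 and lay below contralateral replicate 4. The difference was 0.98 ± 0.28 (adjusted p = 0.0697). Masp1, a protease that activates the lectin route, had a lower ipsilateral mean, with 7.11, 6.60, 6.81, 6.83 and 6.92 against 6.96, 6.89, 7.05, 6.93 and 6.94, and a difference of -0.10 ± 0.09 (adjusted p = 0.560). Masp2 and the mannose-binding lectin gene Mbl2 had means below every array median on both sides and differed by 0.02 and 0.05, and with centred arrays both signs turned.

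The 7 terminal components (Hc, which encodes C5, and C6, C7, C8a, C8b, C8g and C9) all had means below every array median on both sides, between 3.56 and 4.64, so expression above background was not shown for any of them. None passed in limma, none was higher at an unadjusted p under 0.05, and their differences ran from -0.12 to 0.17. C7 had the largest statistic, at 4.53, 4.55, 4.45, 4.60 and 4.47 ipsilaterally and 4.61, 4.71, 4.73, 4.57 and 4.60 contralaterally. Its difference was -0.12 ± 0.06 (unadjusted p = 0.0490, adjusted p = 0.232), and its sides overlapped at ipsilateral replicate 4. Hc read 4.24, 4.39, 4.14, 4.41 and 4.59 against 4.18, 4.15, 4.22, 4.12 and 4.25, a difference of 0.17 ± 0.08 (adjusted p = 0.263) with overlapping sides. The C8 genes, whose products join the pore together, had SDs of 0.13 or less on either side and differences of 0.02 (C8g), 0.07 (C8b) and 0.09 (C8a), and C9, the pore-forming subunit, differed by -0.01.

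All 6 receptor genes had a higher mean ipsilaterally, and 1 passed. C5ar2, the receptor for C5a that does not couple to G proteins, read 5.12, 5.02, 5.20, 5.42 and 5.23 on ipsilateral replicates 1 to 5 and 4.97, 4.87, 4.86, 4.64 and 4.89 contralaterally. Every ipsilateral array was above every contralateral one, which held for this gene alone among the 32 and for 2.04% of all genes. The rise was 0.35 ± 0.09, a 1.28-fold higher signal (adjusted p = 0.0399). It was a small step close to the array medians, since the lowest ipsilateral and the highest contralateral array differed by less than the SD within either side. The call ended in 13 of 21 alternatives, with adjusted p up to 0.166: taking the replicate number as a fixed block it was 0.133, with quantile scaling 0.0590, and after dropping the arrays numbered 2 and 4 from either side 0.166. Leaving out single arrays, it ended without ipsilateral replicates 3 (0.0657), 4 (0.0700) and 5 (0.0874) and without contralateral replicates 1 (0.0590), 2 (0.0729), 3 (0.0895), 4 (0.0703) and 5 (0.0760).

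C3ar1, the receptor for the C3a fragment, had the largest difference among the receptors. Its ipsilateral values were 6.77, 6.31, 6.86, 8.67 and 8.42 and its contralateral values 5.22, 6.58, 6.05, 5.53 and 5.97. Replicates 4 and 5 were again the highest, and ipsilateral replicate 2 lay below contralateral replicate 2. The difference of 1.54 ± 0.46 corresponded to a 2.90-fold higher signal and did not pass (adjusted p = 0.0825). C5ar1, the G protein-coupled receptor for C5a, stood at 3.64, 3.88, 3.99, 4.32 and 4.73 ipsilaterally against 3.62 to 3.66 on the 5 contralateral arrays. Both side means (4.11 and 3.64) lie below every array median, so a signal above background was not shown on either side. The contralateral SD was 0.02, and the difference of 0.47 ± 0.17 did not pass (adjusted p = 0.138).

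Cd93, a membrane protein of endothelial and myeloid cells once described as a C1q receptor, differed by 0.37 ± 0.16 (adjusted p = 0.219), with ipsilateral replicate 5 at 7.41 and the other 4 between 6.61 and 6.83. Cr2, a receptor of B cells and follicular dendritic cells, differed by 0.28 ± 0.13 in its brighter row and by 0.05 in its other row. Vsig4, a receptor of resident macrophages for C3 fragments, differed by 0.04 ± 0.07. Cr2 and Vsig4 lay below every array median on both sides.

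Of the 6 regulators, 5 had higher ipsilateral means, 3 of them at an unadjusted p under 0.05, and none passed. Serping1, the inhibitor of C1r and C1s, was named after its values were seen. It read 7.77, 8.19, 8.75, 9.09 and 10.88 ipsilaterally and 6.69, 8.05, 7.32, 7.46 and 7.40 contralaterally. Ipsilateral replicate 5 was the highest array by a wide margin and replicate 1 lay within the contralateral range. The difference was 1.55 ± 0.50, a 2.93-fold higher signal (adjusted p = 0.105).

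Clu encodes clusterin, an inhibitor of the membrane pore and a lipid carrier. Its ipsilateral values were 14.18, 14.67, 14.79, 15.03 and 15.33 and its contralateral values 14.05, 14.26, 14.43, 14.12 and 14.16. Without ipsilateral replicate 1 the sides would not overlap, and the difference was 0.60 ± 0.18 (adjusted p = 0.0849). Cd59a, a membrane anchor protein that blocks pore assembly, stood at 8.70, 9.01, 8.88, 9.11 and 9.48 ipsilaterally and at 8.09, 9.14, 8.16, 8.18 and 8.16 contralaterally. A single contralateral array, replicate 2, reached the ipsilateral range. The difference was 0.69 ± 0.21 (adjusted p = 0.0860), and without contralateral replicate 2 it was 0.89 (adjusted p = 0.00875). Cd59a has a close copy, Cd59b, so its signal may be shared.

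The convertase regulators Cd55, Cd46 and Cfi differed little. Cd55, which speeds the decay of convertases, differed by 0.14 ± 0.15, Cd46, a cofactor for the cleavage of C3b, by -0.11 ± 0.12, and the C3b-cleaving protease gene Cfi by 0.05 ± 0.07. Their adjusted p values were 0.648, 0.672 and 0.773. Cfi lay below every array median, and a p above the threshold does not show that the sides were alike.

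The differences that were large were also uneven between arrays. In 9 genes the log2 difference was at least 0.5 (C1qa, C1qb, C1qc, C4b, C3ar1, Serping1, Colec12, Cd59a and Clu), a group taken from its values and described without a test. Relative to the contralateral mean, the median of these 9 genes was 0.35 on ipsilateral replicate 1, 0.66 on replicate 2, 0.99 on replicate 3, 2.44 on replicate 4 and 2.20 on replicate 5. Ipsilateral replicate 1 was above every contralateral array in 2 of the 9 genes, and replicates 2, 3, 4 and 5 in 6, 7, 8 and 9. On the contralateral side replicate 2 stood at 0.67, close to ipsilateral replicate 2, while the other 4 lay between -0.50 and 0.10. Contralateral replicate 2 held the highest contralateral value in 14 of the 32 genes and in 7 of these 9.

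**Figure D3:**
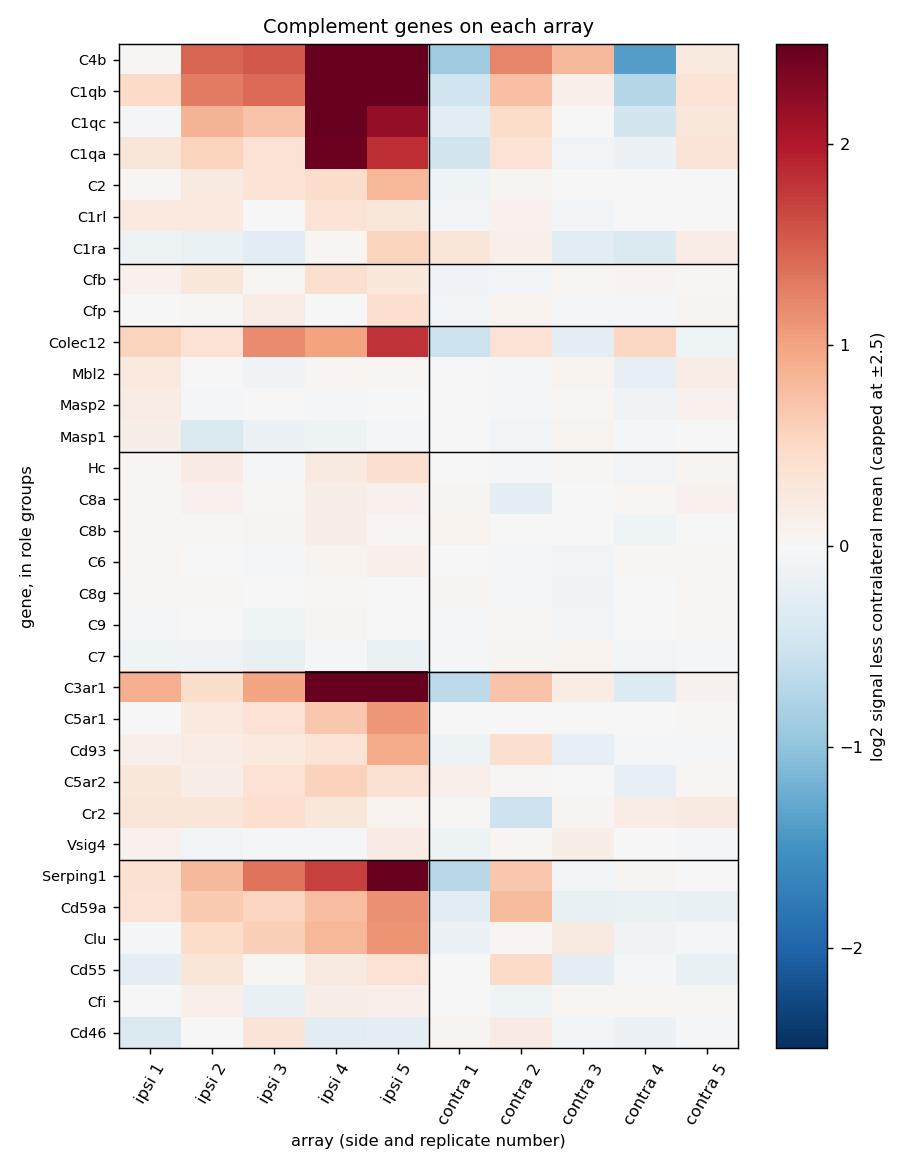
Log2 signal of each of the 32 genes (rows, in role groups) on each of the 10 arrays (columns), less the contralateral mean of that gene; red is higher and blue lower, with colours capped at 2.5 either way. The C1q chain genes, C4b and C3ar1 are darkest on ipsilateral replicates 4 and 5, ipsilateral replicate 1 is pale, and the terminal components show little colour on any array.

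Signal varied more ipsilaterally than contralaterally in 24 of the 32 genes, against 63.6% of all genes, and in 7 of 7 classical pathway genes. The median SD of the 32 genes was 0.183 ipsilaterally and 0.129 contralaterally, against 0.155 and 0.124 over all genes. Leaving out ipsilateral replicate 1 changed the calls most. Without it 8 of the 32 genes passed upward, against 2.52% of all genes in that fit: C1qb (2.17, adjusted p = 0.0178), C1qc (1.61, 0.0408), C4b (2.48, 0.0465), C2 (0.46, 0.0367), C5ar1 (0.59, 0.0419), C5ar2 (0.37, 0.0401), Serping1 (1.84, 0.0473) and Clu (0.75, 0.00993). Of these 8 genes, all but C5ar2 had their lowest ipsilateral value on replicate 1, so leaving it out had to widen their differences. The count without it is therefore not a result about the list. Without ipsilateral replicate 4 or 5, or contralateral replicate 1, 3, 4 or 5, none passed. C1rl (0.28, adjusted p = 0.0251) was the only gene of the 32 to pass without ipsilateral replicate 3, and Cd59a the only one without contralateral replicate 2.

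Cell-type markers moved with these arrays. The mean log2 signal of 6 measured microglial markers was 8.20, 8.08, 8.04, 8.83 and 8.73 on ipsilateral replicates 1 to 5 and 7.69, 8.04, 7.89, 7.67 and 7.80 contralaterally, so replicates 4 and 5 were the highest there too and contralateral replicate 2 the highest of its side. All 6 had higher ipsilateral means and none passed. The mean on ipsilateral replicate 1 includes Sall1 at 10.02, against 7.78 to 8.70 on the other ipsilateral arrays. The 7 monocyte and macrophage markers ranged from 6.25 to 7.34 ipsilaterally and from 5.88 to 6.29 contralaterally, with the highest value on ipsilateral replicate 5, and 1 passed (Cd163). The 7 astrocyte markers ranged from 10.36 to 11.37 and from 10.12 to 10.51, with Aqp4 called higher. The 5 fibroblast and meningeal markers ranged from 7.96 to 9.87 and from 6.85 to 7.83, without overlap, with Dcn and Col1a1 called higher. The part of these cell types in the complement differences was not tested.

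**Figure D4:**
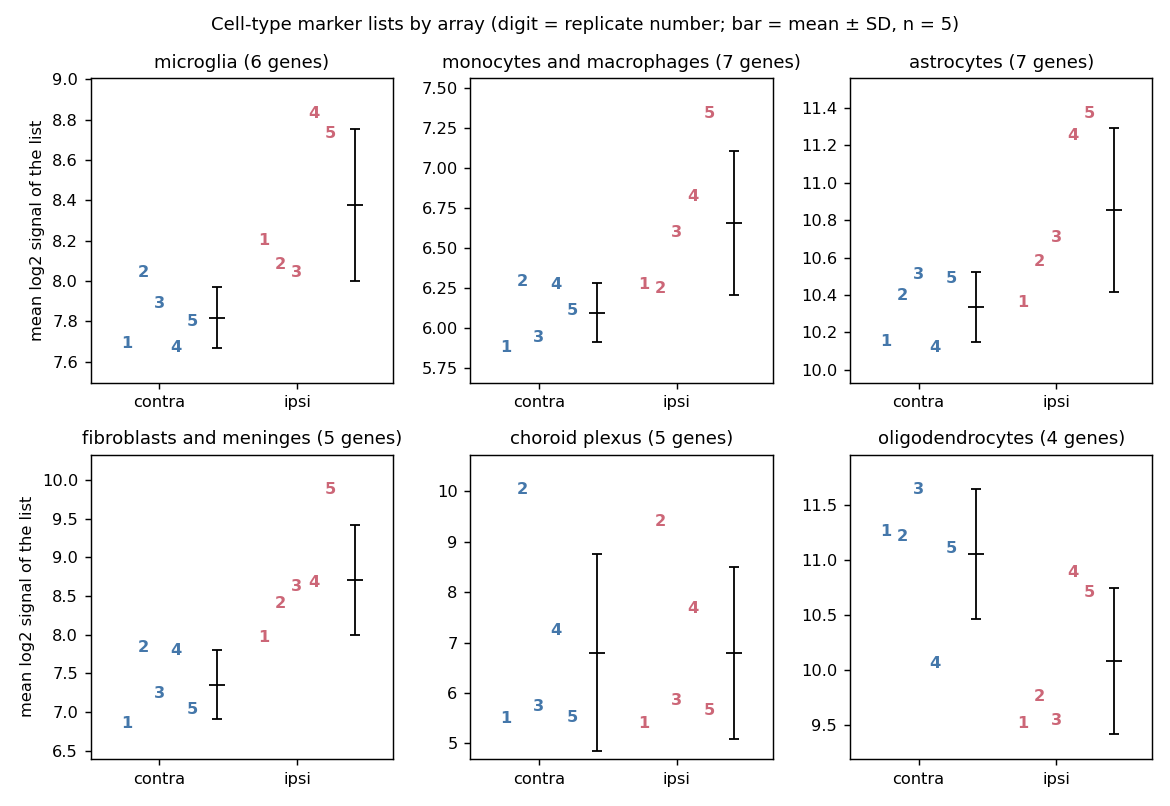
Mean log2 signal (y axis, a scale of its own in each panel) of 6 cell-type marker lists on contralateral (blue) and ipsilateral (red) arrays; digits are replicate numbers and bars are mean ± SD, n = 5. Ipsilateral replicates 4 and 5 are highest for microglia and astrocytes, and choroid plexus markers are highest on replicate 2 of both sides.

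Set against the microglial markers on the same array, the C1q and C3ar1 differences were smaller and kept their sign. The microglial list averaged 8.38 ipsilaterally and 7.82 contralaterally. The log2 signal less that of the list was higher ipsilaterally by 1.27 for C1qb, 0.72 for C1qc, 0.55 for C1qa and 0.98 for C3ar1, with 4, 4, 2 and 4 of 5 ipsilateral arrays above the contralateral range. Set against the astrocyte markers, C4b was higher by 1.47 and Clu by 0.08. For Clu that difference was smaller than the SD within either side (0.14 ipsilaterally and 0.12 contralaterally). The astrocyte list was uneven, with 6 of 7 markers higher and side differences from -0.36 (Aldh1l1) to 2.07 (Gfap). The microglial markers also varied, with side differences from 0.08 (Tmem119) to 0.9 (Csf1r). Values set against the mean of either list, those of C1q, C3ar1 and Clu included, therefore depend on which markers are in the list. With the lists exchanged the differences were close to these. Against the astrocyte markers they were 1.31 for C1qb, 0.76 for C1qc, 0.58 for C1qa and 1.02 for C3ar1. Against the microglial markers they were 1.43 for C4b and 0.04 for Clu. Setting a gene against either list therefore does not tell microglia and astrocytes apart. These relative values were not tested.

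Other lists moved less or in another way. Choroid plexus markers were high on replicate 2 of both sides (9.40 and 10.03) and on replicate 4 (7.68 and 7.25), and lay between 5.39 and 5.85 on the other 6 arrays. Contralateral replicate 2, the array highest for choroid plexus markers, is also the contralateral array on which Cd59a was high (9.14). Cd59a was 9.01 on ipsilateral replicate 2, inside the range of its side, and 8.18 on contralateral replicate 4. A link between choroid plexus markers and Cd59a was not tested. Oligodendrocyte markers (4 measured) had lower ipsilateral means, at 9.51 to 10.89 against 10.06 to 11.64, with none called. Endothelial markers ranged from 8.27 to 9.03 and from 8.29 to 8.76, with none called, and neuronal markers from 14.83 to 15.22 and from 15.02 to 15.30, with Rbfox3 called lower. Neutrophil markers ranged from 4.36 to 4.98 and from 4.33 to 4.5, T and B cell markers from 4.23 to 4.38 and from 4.25 to 4.30, erythrocyte markers from 4.28 to 4.32 and from 4.23 to 4.37, and liver and serum markers from 4.11 to 4.26 and from 3.96 to 4.28. No gene of these last 4 lists was called, and of their markers 3 of 5, 3 of 4, 2 of 2 and 4 of 4 had means below every array median on both sides.

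Beyond the 35 genes, 34 of 39 other genes of the pathway were measured, and 1 passed upward and 1 downward. Of all genes tested, 1.22% passed upward and 4.33% downward, so these counts are not a result about the list. Sez6, which encodes a neuronal membrane protein with complement-control domains, read 9.87, 9.56, 9.64, 9.45 and 9.72 ipsilaterally and 8.93, 8.78, 9.23, 9.44 and 9.02 contralaterally. It rose by 0.57 ± 0.13 (adjusted p = 0.0258), with no overlap between sides, and its closest pair of arrays differed by 0.01. Lrp1, an endocytic receptor that clears protease complexes among other ligands, read 12.45, 12.68, 12.63, 12.74 and 12.61 against 13.03, 12.98, 13.22, 13.04 and 12.94, and it fell by 0.42 ± 0.07 (adjusted p = 0.00852). The Sez6 call ended without ipsilateral replicate 5 (adjusted p = 0.0643), without contralateral replicates 1 (0.0734), 2 (0.0520) and 5 (0.0651) and under the fixed replicate block (0.0856). The call of Lrp1 ended without the arrays numbered 2 and 4 (0.0823) and held in each fit that left out 1 array (adjusted p up to 0.0271).

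The other 32 pathway genes did not pass. Those named next were chosen after their values were seen. Vtn, the gene of vitronectin, which binds the forming pore, differed by 0.73 ± 0.19 (adjusted p = 0.0514), and the subunits of complement receptor 3, Itgam and Itgb2, by 1.08 ± 0.37 (adjusted p = 0.119) and 0.86 ± 0.30 (adjusted p = 0.13). Lower ipsilateral means were measured for Sez6l2 (-0.48 ± 0.14, adjusted p = 0.0769), Csmd2 (-0.38 ± 0.11, adjusted p = 0.0856) and Csmd1 (-0.41 ± 0.14, adjusted p = 0.108), which encode neural membrane proteins of the same sushi-domain type as Sez6. These genes did not all move one way. Csmd3 had a higher ipsilateral mean (0.37 ± 0.16, adjusted p = 0.218 in limma), and Sez6l a lower one (-0.18 ± 0.15, adjusted p = 0.519). The sides did not overlap for Vtn, Sez6l2 and Csmd2. With Sez6 and Lrp1 this held for 5 of the 34 genes, against 2185 of all 30142 genes in either direction. Of the 34 genes, 24 had higher and 10 lower ipsilateral means, and the median difference was 0.10.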

How the data were processed

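RNA of 10 mouse brain samples was measured on Affymetrix whole-transcript arrays. The authors deposited log2 signals, 1 per probe set and array. The submitters' processing notes name Transcriptome Analysis Console 4.0. That the scale is log2 was inferred from the range, 1.97 to 19.93. The steps of normalization and summarization, and the build, are not given in the sources used here. No batch or scan date was given, so batches were not tested.

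Of 65956 rows, 30604 named 1 symbol, 2146 several and 33206 were unnamed here. Symbols were updated by Entrez identifier from the RefSeq gene table of GRCm38.p6, which matched 22818 rows. The brightest row per gene was kept. The comparison was fitted without covariates by lmFit and eBayes of limma 3.58.1 under R 4.3.3, with statmod 1.5.0 for the random block, and p-values were adjusted over all 30142 genes. Because separate animals are not stated, p-values measure the spread between these samples. On simulated arrays of 30142 genes for this comparison, 70% of genes raised by 0.5 were recovered, 82% at a rise of 1, 98% at a rise of 2 and 88% at a change of -1. The changed genes were drawn at random, noise was independent between arrays with the SD of each gene, and 8 unchanged genes were called. These rates do not carry over to the 9 complement genes with large differences. Their median ipsilateral SD was 1.064, against 0.155 over all genes.

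The genes, role groups, 12 marker lists and other pathway genes were chosen with earlier results of these data known. Values on every array are given for called genes, for the genes with the 2 largest statistics in each role group, for the C1q chains and for C4b, and of the other pathway genes for those called. Alternatives were the replicate number as a fixed or random block, trended and robust variance, array weights, quantile scaling, median centring, 2 filters on dim genes, the mean of the rows of a gene, every row tested, a threshold of 0.01, each array left out, and the arrays numbered 2 and 4 left out.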

Additional observations from a re-analysis of the deposited data

Results flagged for a closer look

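In 5 of 64 groups of 5 arrays (32 genes on 2 sides), the gap between an extreme array and its neighbour was a larger share of the range than Dixon's critical value of 0.71. Chance gives about 1 in 20. Contralateral replicate 2 was the highest of its side for Cd59a, at 9.14 with the next array at 8.18, and the lowest for Cr2, at 3.70 with the next at 4.23. Ipsilateral replicate 5 was the highest for Cd93, at 7.41 with the next at 6.83. Ipsilateral replicate 1 was the highest for Masp2, at 4.59 with the next at 4.41, and ipsilateral replicate 3 the lowest for C1rl, at 4.17 with the next at 4.42. Cr2, Masp2 and C1rl lay below every array median.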

How the results depend on the processing

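Over 22 alternatives, 634 of 681 values of single complement genes kept their sign and their side of the threshold. Against 1 complement gene called higher on the deposited values, the count was 4 with array weights, 2 with centred arrays and with either filter on dim genes (27 and 14 genes tested), and 0 with the fixed replicate block, quantile scaling, every row tested, a threshold of 0.01 and without the arrays numbered 2 and 4. Calls over all genes moved too: 656 of 30142 were higher with array weights, 225 with centring, and 472 of 22600 and 534 of 15070 with the filters, against 369 of 30142. The complement count ranged from 0 to 8 when single arrays were left out, and no alternative called a complement gene lower. C1qb passed with array weights, centring and both filters (adjusted p = 0.0305, 0.0490, 0.0483 and 0.0375). Of the other pathway genes, 2 were higher with array weights, quantile scaling and both filters, 0 with the fixed replicate block and a threshold of 0.01, and 0 to 5 without single arrays. Lower were 2 with array weights and the stricter filter, 0 without the arrays numbered 2 and 4, and 1 to 3 without single arrays. The median difference was 0.83 with the stricter filter, which left 14 genes. Signs turned in 8 genes near 0: C1ra (-0.06 with quantile scaling, -0.05 centred, -0.02 without the arrays numbered 2 and 4, -0.12 to 0.08 without single arrays), Masp2 (-0.02 with quantile scaling, -0.04 centred, -0.02 to 0.05 without single arrays), C8g (-0.03 with quantile scaling, -0.04 centred), Mbl2 (-0.01 centred, -0.01 without the arrays numbered 2 and 4), C6 (-0.01 centred), Vsig4 (-0.02 centred), Cfi (-0.01 centred, -0.04 without the arrays numbered 2 and 4) and C9 (-0.03 to 0.01 without single arrays). The causes were not tested. Arrays of the same number correlated at -0.399 to 0.259 in their deviations from the side means, so the numbers were not taken to pair the samples. Choroid plexus markers were nevertheless high on replicates 2 and 4 of both sides, and the labels do not say whether same-numbered samples share a mouse. The fixed replicate block gave 946 calls over all genes against 1674, and the random replicate block 1 complement gene higher. Where a signal lies below the array medians, changes are not settled.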
